A study of Mus musculus with 27 samples.

Results

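The interferon-stimulated genes described here are 37 genes, taken by name from a deposited table of 55401 genes. All 37 were found. They were measured in 27 RNA sequencing libraries of 4T1 cells, a mouse mammary carcinoma cell line, in 9 groups of 3 libraries. The parental group was unmodified 4T1 cells. The 6 knockout groups were CRISPR-Cas9 clones, 2 for each of 3 genes of mitochondrial fission, and the clones are named by the codes in the column names: gs1B8 and gs2_B4 for Drp1 (gene Dnm1l), gs1_B11 and gs2_F6 for Fis1, and gs1_B4 and gs1_C8 for Mff. The 2 drug groups were unmodified 4T1 cells kept for 3 days in leflunomide, an inhibitor of pyrimidine synthesis, or in its vehicle DMSO. Each knockout group is 1 clone, so a change in it may belong to the clone or to the lost gene, and these cannot be told apart from 1 clone. Nothing in the labels says that the 3 libraries of a group came from separate cultures, so p-values measure the spread between these libraries, which may be technical. The column names carry a serial number, and replicates are numbered here by its order within a group.

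Interferon-stimulated genes are the transcripts that cells raise after type I or type III interferon binds its receptor. The receptor activates the kinases JAK1 and TYK2, which phosphorylate STAT proteins. STAT2 and IRF9 are subunits of the factor ISGF3, which binds the interferon-stimulated response element (ISRE) in promoters. A second element of these promoters is the gamma-activated site (GAS). Many of the proteins block viral replication by binding, cutting or modifying RNA, and several, such as STAT2, IRF7 and IRF9, feed back on the pathway itself.

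The promoters of several members hold the core of the ISRE, the element through which ISGF3 acts, and stretches with it are printed here to show the element. RefSeq windows on GRCm38.p6, 250 bases before to 50 bases after an annotated start, were given for 29 of the 37 genes, and not for Ifi27, Mx1, Mx2, Oas2, Parp14, Parp9, Rtp4 or Usp18. The ISRE core was searched on both strands as GAAA, any 2 bases and GAAA, so that on the other strand it reads TTTC, 2 bases, TTTC, and its copies may overlap. In the 60-base stretches that follow, written 5′ to 3′ along the gene's strand, capitals mark the cores.
Isg15, chr4:156200856-156200915, minus strand: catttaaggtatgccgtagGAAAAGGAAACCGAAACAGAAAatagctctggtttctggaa
Ifit1, chr19:34640769-34640828, plus strand: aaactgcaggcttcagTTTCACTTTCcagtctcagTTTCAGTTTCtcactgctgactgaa
Ifit3, chr19:34583365-34583424, plus strand: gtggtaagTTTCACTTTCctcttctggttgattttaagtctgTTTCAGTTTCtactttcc
Ifit3b, chr19:34607761-34607820, plus strand: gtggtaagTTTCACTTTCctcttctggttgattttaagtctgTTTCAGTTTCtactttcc
Oas1a, chr5:120907526-120907585, minus strand: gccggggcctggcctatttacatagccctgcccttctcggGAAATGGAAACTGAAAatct
Ddx60, chr8:61928026-61928085, plus strand: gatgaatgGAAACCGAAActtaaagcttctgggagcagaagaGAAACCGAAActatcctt
Rsad2, chr12:26456538-26456597, minus strand: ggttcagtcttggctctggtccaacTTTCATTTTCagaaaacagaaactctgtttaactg
Isg15 has 3 overlapping cores in this stretch, which starts 97 bases before the annotated start. Ifit1, Ifit3, Ifit3b, Oas1a and Ddx60 have 2 cores each and Rsad2 has 1. The stretches of Ifit3 and Ifit3b are the same letter for letter. In all, 12 of the 29 genes (41.4%) held an ISRE core anywhere in a window, against 3.99% of the 27025 genes with a window. The other 5 were Bst2, Eif2ak2, Oas3, Stat2 and Trim30a. With 1 mismatch allowed in the fixed letters, the counts were 27 of 29 (93.1%) and 38.9%.

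The GAS core TTCNNNGAA, which reads the same on both strands, was in a window of 8 of the 29 genes (27.6%), against 9.55% of all genes with a window. Irf1, a transcription factor gene that responds to interferon gamma, is 1 of 5 members that have it without an ISRE core, and its stretch is printed as an example of the element.
Irf1, chr11:53769898-53769957, plus strand: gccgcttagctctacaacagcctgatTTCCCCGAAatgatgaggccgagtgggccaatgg
Here the capitals mark the GAS core. The other 7 genes with a GAS core were Adar, Bst2, Eif2ak2, Ifi35, Ifit2, Isg20 and Oas1a, and 12 of the 29 genes had neither core. A match of these letters is a description of the window and not a bound site.

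Library totals ran from 18492020 to 31295937 counts. The targeted genes were lower in their own clones, with mean levels of 31.5% (gs1B8) and 18.9% (gs2_B4) of parental for Dnm1l, 44.2% (gs1_B11) and 36.3% (gs2_F6) for Fis1, and 55.5% (gs1_B4) and 50.01% (gs1_C8) for Mff. Levels are given as CPM, the customary scaling of counts to a common library total, after TMM normalization over all 27 libraries. DMSO replicate 3 stood apart, since 23.2% of its counts fell on the precursor of ribosomal RNA, against 1.601% to 5.72% in the other 26 libraries. Within the Mff clone gs1_C8, replicate 1 was the highest of the 3 libraries for 36 of the 37 genes. Of 9 epithelial markers, Epcam had group means of 151.1 to 281 CPM. Krt5 was under 0.04 CPM in every group, and Cldn7 was at 12.6 ± 0.234 CPM in parental cells and near 0 in all 6 clones. Krt14 was at 62.6 ± 7.96 CPM in parental cells and 8.89 ± 2.86 CPM in gs1_B4.

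The interferon-stimulated genes were highest in gs1_C8, in every case. All 37 had their highest group mean there, and for 35 of them each of the 3 gs1_C8 libraries lay above each of the 24 other libraries. The exceptions were Ifit2 and Irf1. Neither count was made over all genes. The summed level of the 37 genes was 3780, 2507 and 2637 CPM in gs1_C8, against 490.8, 435.2 and 452.7 CPM in parental cells, a ratio of means of 6.47. Without gs1_C8 replicate 1 the ratio was 5.60. In bulk RNA, more cells with the transcripts and more transcripts per cell cannot be told apart. The other Mff clone, gs1_B4, came next at 598.2, 567.9 and 521.5 CPM, above all parental libraries, with a ratio of 1.22. The Fis1 clone gs1_B11 was the lowest, at 394.8, 371.1 and 360.4 CPM and a ratio of 0.817, below all parental libraries. The clones gs1B8 (451.3 to 460.8 CPM), gs2_B4 (472.0 to 510.5 CPM) and gs2_F6 (429.5 to 458.4 CPM) overlapped with parental cells. Abundant genes weigh most in these sums. In parental cells Trim25, Eif2ak2 and Adar had the highest means, at 78.8, 55.3 and 45.3 CPM.

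**Figure D1:**
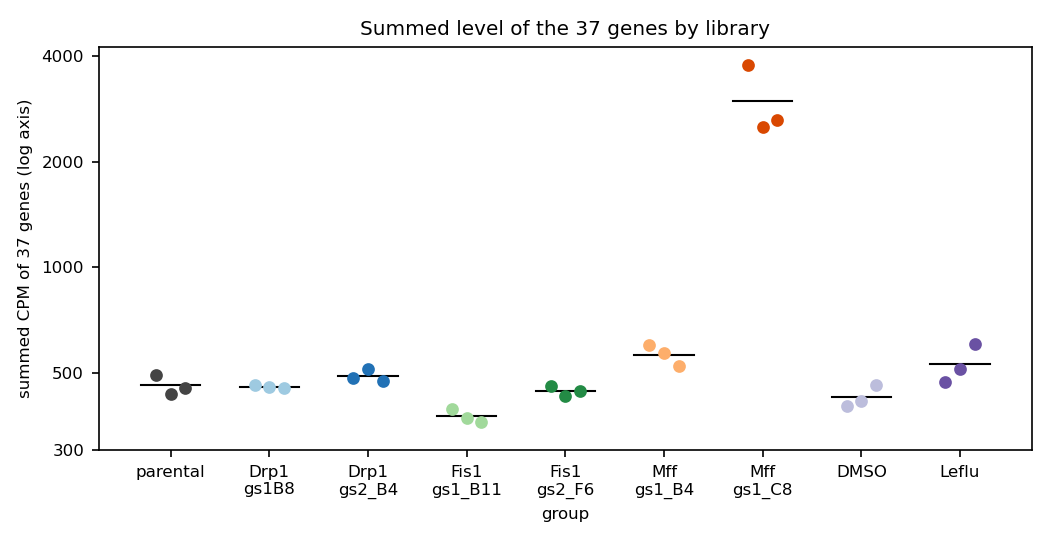
Summed CPM of the 37 interferon-stimulated genes (log axis) in each library, by group; each point is 1 library and each bar the mean of 3. The 3 libraries of gs1_C8 lie between 2507 and 3780 CPM, above all others, and gs1_B11 lies lowest, at 360.4 to 394.8 CPM.

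**Figure D2:**
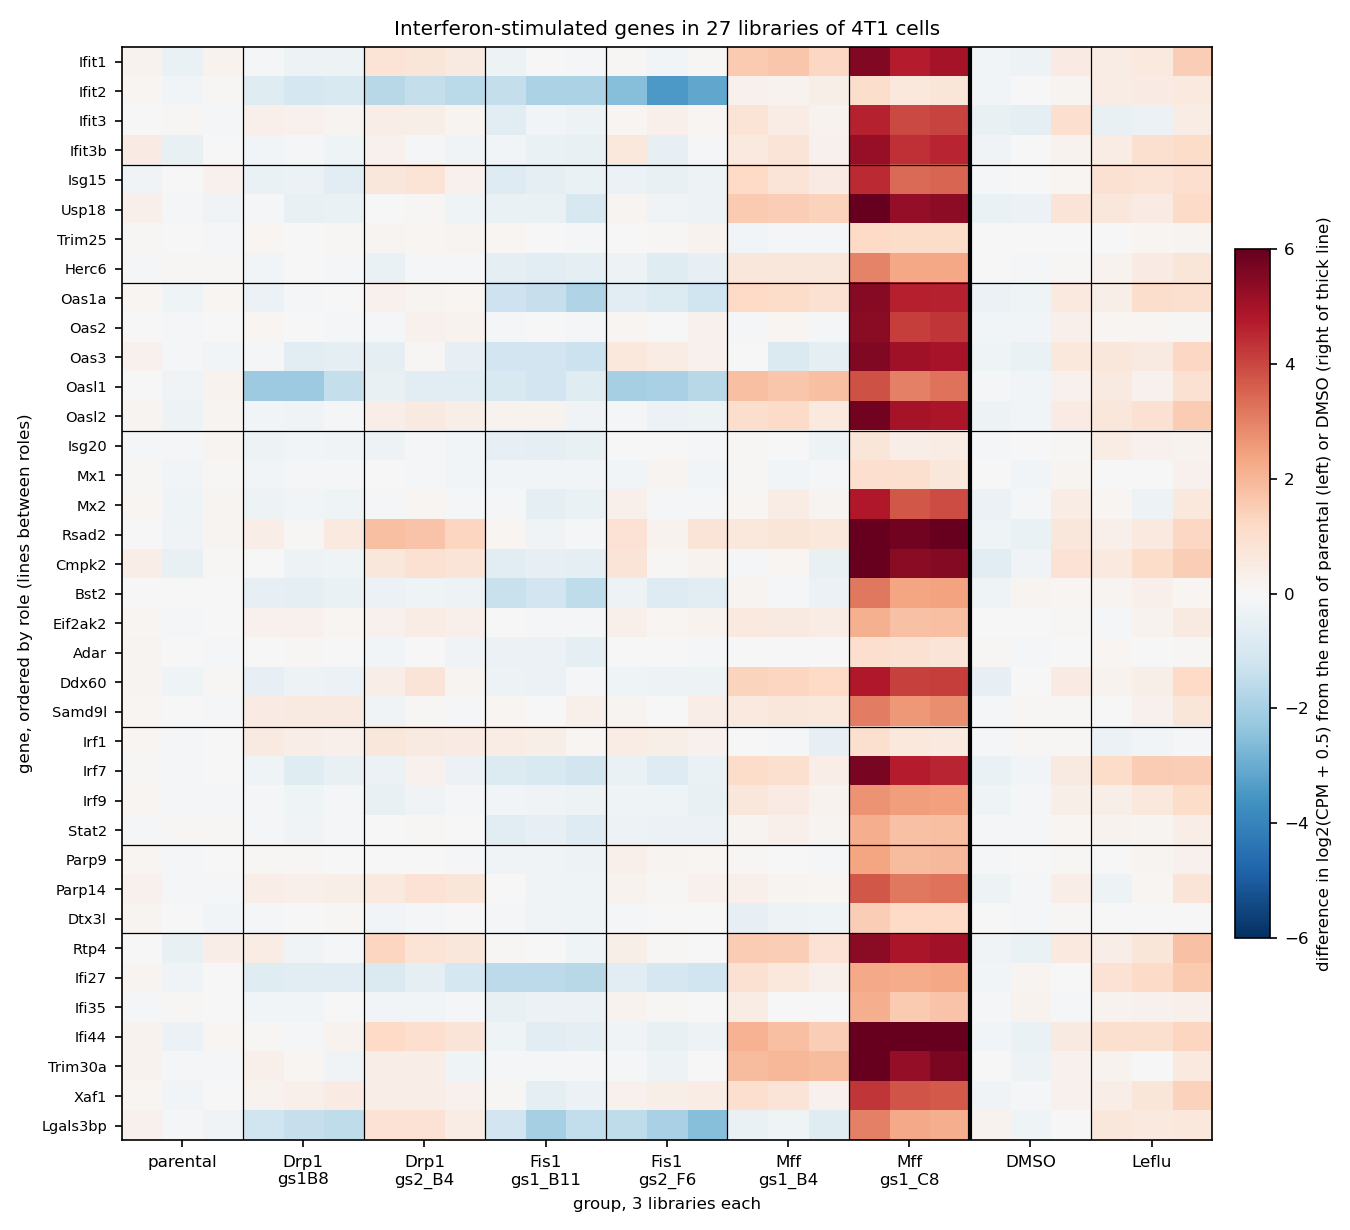
Each cell is 1 gene (rows, in 7 roles) in 1 library (columns), coloured by its difference in log2(CPM + 0.5) from the mean of parental cells or, right of the thick line, of DMSO; colours stop at 6 in each direction. The column block of gs1_C8 is red in all 37 rows, gs1_B4 is red in fewer, and Ifit2, Oasl1, Ifi27 and Lgals3bp have blue cells in the Drp1 or Fis1 clones.

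Each clone was compared with parental cells by edgeR's quasi-likelihood F test over 13940 genes, two-sided, with Benjamini-Hochberg adjustment over all of them and a threshold of 0.05 on the adjusted p. Fold changes are on the log2 scale, with the standard error (SE) of the fitted coefficient. All 37 members rose in gs1_C8 and none fell. Of all genes tested there, 21.5% were higher and 25.2% lower. The median log2 fold change of the members was 3.48 (0.52 to 8.62), against -0.02 over all genes tested. Leaving out any of the 6 libraries of this comparison kept all 37 calls. The genes passed a filter on low counts before the test, and 28 of the 37 passed its minimum in each of the 9 groups. Oas2, Mx1 and Mx2 passed it only in gs1_C8, so these 3 had to differ there. In the knockout arm Trim30a, Ifit3 and Ifit3b passed it only in the 2 Mff clones. The 18 genes with a parental mean under 5 CPM had log2 fold changes of 3.07 to 8.62, and the 19 others of 0.52 to 5.38.

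In gs1_B4, 19 of the 37 rose and 2 fell, against 20.9% and 26.8% of all genes tested. The median log2 fold change was 0.57, against -0.02 over all genes. All 19 also rose in gs1_C8, so 19 of the 37 rose in both Mff clones, as did 7.37% of all genes. None fell in both, as did 11.3% of all genes, and Trim25 and Dtx3l fell in gs1_B4 and rose in gs1_C8. Both clones are compared with the same 3 parental libraries. Among the 19, Ifit3 and Trim30a passed the count minimum in the knockout arm only in these clones. The direct comparison of the clones showed all 37 members higher in gs1_C8 than in gs1_B4, with a median log2 difference of 3.25. Of all genes 28.3% were higher and 26.4% lower. Oas2, Mx1 and Mx2, which passed the count minimum only in gs1_C8, had to differ here too.

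The IFIT proteins bind viral RNA and block its translation. The 4 genes lie near each other on chromosome 19, from 34550694 (Ifit2) to 34650009 (Ifit1) on GRCm38. Ifit1 was at 2.75, 1.58 and 2.67 CPM in parental cells, 7.88, 8.31 and 6.14 CPM in gs1_B4 and 130.5, 72.8 and 88.6 CPM in gs1_C8. The 3 groups did not overlap. Its log2 fold change was 1.66 ± 0.24 (adjusted p = 1.2e-05) in gs1_B4 and 5.39 ± 0.21 (adjusted p = 9.5e-14) in gs1_C8. Ifit3 was at 0.284, 0.316 and 0.226 CPM in parental cells and 18.5, 11.5 and 12.4 CPM in gs1_C8, and Ifit3b at 0.615, 0.0789 and 0.272 CPM and 29.6, 16.3 and 18.5 CPM. Ifit3 and Ifit3b are near copies that share 51.2% and 45% of their 50-base exonic words with other genes, nearly all of them with each other, so the split of reads between them is uncertain. Ifit2 rose least, from 10.9, 8.91 and 10.6 CPM to 21.8, 15.9 and 17.2 CPM, a log2 fold change of 0.84 ± 0.16 (adjusted p = 0.0002). In gs1_B4 it was at 12.3, 11.6 and 13.1 CPM, which did not pass the test (adjusted p = 0.21).

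ISG15 is a ubiquitin-like protein that is joined to other proteins, HERC6 is the mouse ligase that joins it, USP18 removes it and also restrains the receptor, and TRIM25 is a ligase that acts on the RNA sensor RIG-I. Isg15 was at 3.93, 4.57 and 5.71 CPM in parental cells, 11.5, 8.42 and 6.84 CPM in gs1_B4 and 113, 54.3 and 58.7 CPM in gs1_C8. The 3 groups did not overlap, and replicate 1 of gs1_C8 was the highest library. The log2 fold change was 0.88 ± 0.28 (adjusted p = 0.014) in gs1_B4 and 3.98 ± 0.25 (adjusted p = 1.3e-10) in gs1_C8. The call in gs1_B4 was lost without parental replicate 1 (log2 0.79, adjusted p = 0.052) or gs1_B4 replicate 1 (log2 0.66, adjusted p = 0.084). Usp18 rose from 1.14, 0.710 and 0.634 CPM to 3.40, 3.12 and 2.89 CPM in gs1_B4 and 89.7, 49.5 and 53.96 CPM in gs1_C8, the latter at log2 6.28 ± 0.25 (adjusted p = 1.3e-13). Herc6 rose to 13.5 ± 0.0964 CPM and 51.4 ± 14.3 CPM from 8.21 ± 0.596 CPM (SD, n = 3 each). Trim25 had the highest parental level of the 37 in CPM, at 83.5, 77.7 and 75.4 CPM, and was at 183, 171 and 169.6 CPM in gs1_C8. It was lower in gs1_B4, at 70.8, 72.3 and 73.98 CPM (log2 fold change -0.15 ± 0.05, adjusted p = 0.027), a small change that was not called without parental replicate 1 (log2 -0.083, adjusted p = 0.27) or replicate 2 (log2 -0.14, adjusted p = 0.085), nor without gs1_B4 replicate 1 (log2 -0.14, adjusted p = 0.08) or replicate 2 (log2 -0.15, adjusted p = 0.061).

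The OAS enzymes sense double-stranded RNA and make the messenger that activates RNase L, and the OAS-like proteins are their relatives. Oas2, Oas3 and Oas1a lie on the minus strand of chromosome 5 between 120730333 and 120907521, and Oasl2 and Oasl1 on its plus strand between 114896936 and 114937915. Oas1a was at 3.31, 2.41 and 3.26 CPM in parental cells, 7.40, 7.04 and 6.03 CPM in gs1_B4 and 152, 88.4 and 83.4 CPM in gs1_C8, and 57.6% of its 50-base words also occur in Oas1g. Oasl2 reached 359, 204 and 196 CPM, the highest level of the 37 in gs1_C8 in CPM, from 6.72, 4.77 and 6.79 CPM. Oas2 was near 0 outside gs1_C8, with 2 counts over the 3 parental libraries and 1071 over those of gs1_C8, a ratio of 490 with a 95% counting interval of 135 to 4050. Oas3 was at 2.46, 1.81 and 1.68 CPM in parental cells and 114, 82.01 and 75.2 CPM in gs1_C8. In gs1_B4 it was at 2.02, 0.835 and 1.21 CPM and did not pass the test (log2 fold change -0.59 ± 0.32, adjusted p = 0.14). The Mff clones thus differed in which OAS genes passed: Oas1a, Oasl1 and Oasl2 in both, and Oas2 and Oas3 in gs1_C8 alone. The difference between the clones itself passed for all 5, but Oas2 passed the count minimum only in gs1_C8 and had to differ.

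Among other antiviral effectors, Rsad2 (viperin, which makes a chain-terminating nucleotide) and its neighbour Cmpk2, a mitochondrial nucleotide kinase gene, rose most. They lie on opposite strands of chromosome 12, Rsad2 at 26442746 to 26456452 and Cmpk2 at 26469204 to 26479837. Rsad2 was at 1.28, 1.03 and 1.49 CPM in parental cells and 161, 95.97 and 125 CPM in gs1_C8, a log2 fold change of 6.65 ± 0.22 (adjusted p = 5.9e-15). Cmpk2 was at 1.89, 0.868 and 1.40 CPM and 123, 76.96 and 84.3 CPM, with 6.10 ± 0.22 (adjusted p = 2.6e-14). In gs1_B4 the neighbours were called differently, Rsad2 as higher (2.26, 2.40 and 2.23 CPM) and Cmpk2 not (1.19, 1.49 and 0.841 CPM, adjusted p = 0.60). The call of Rsad2 there was lost without any 1 of the gs1_B4 libraries or parental replicate 1 or 2 (log2 0.72 to 0.88, adjusted p = 0.071 to 0.13). The GTPase gene Mx2 went from 0.331, 0.158 and 0.362 CPM to 21.1, 9.79 and 11.1 CPM. Its relative Mx1 stayed low, with 42 counts over the 3 gs1_C8 libraries and 4 over the parental ones. Bst2, which tethers virus particles to the cell, rose from 12.7, 12.8 and 12.95 CPM to 121, 67.4 and 71.6 CPM, and was at 14.4, 11.7 and 9.91 CPM in gs1_B4, a range that holds the parental values. Ddx60, an RNA helicase gene, and Samd9l rose in both Mff clones, to 6.06 ± 0.346 CPM and 33.9 ± 0.987 CPM in gs1_B4 and 56.8 ± 16.2 CPM and 156 ± 26.6 CPM in gs1_C8, from 2.23 ± 0.406 CPM and 21.6 ± 1.54 CPM (SD, n = 3 each). Eif2ak2, the gene of the RNA-activated kinase PKR, Adar, an RNA-editing enzyme gene, and the exonuclease gene Isg20 had parental means between 31.4 and 55.3 CPM and the smallest rises of the 10 effectors, by log2 1.92, 0.90 and 0.52 in gs1_C8.

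Of the signalling genes, Irf7, the factor that amplifies interferon production, was at 1.56, 1.26 and 1.49 CPM in parental cells, 3.64, 3.23 and 2.08 CPM in gs1_B4 and 98.8, 50.3 and 45.2 CPM in gs1_C8. The log2 fold change was 1.02 ± 0.37 (adjusted p = 0.027) in gs1_B4 and 5.48 ± 0.29 (adjusted p = 8.8e-12) in gs1_C8. In gs1_B4 the call was lost without gs1_B4 replicate 1 or 2 or parental replicate 2 or 3 (log2 0.86 to 1.05, adjusted p = 0.057 to 0.10). The ISGF3 subunit genes Irf9 and Stat2 rose to 52.5 ± 4.90 CPM and 38.1 ± 6.65 CPM in gs1_C8 from 8.53 ± 0.781 CPM and 9.61 ± 0.777 CPM (SD, n = 3 each). In gs1_B4 Irf9 also rose, by log2 0.46 ± 0.11 (adjusted p = 0.0015), and Stat2 was not called (adjusted p = 0.15). Parp9, Parp14 and Dtx3l, which encode 2 ADP-ribosyltransferases and the ligase partner of PARP9, rose in gs1_C8 to 106 ± 20.6 CPM, 166 ± 36.5 CPM and 58.04 ± 7.42 CPM from 24.8 ± 2.07 CPM, 15.2 ± 2.49 CPM and 23.5 ± 2.58 CPM (SD, n = 3 each). None of the 3 rose in gs1_B4, where Dtx3l was lower (log2 fold change -0.38). The spans of Parp9 and Dtx3l overlap on opposite strands of chromosome 16, and whether counting used strand is not given in the sources used here.

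Among the remaining genes, Ifi44 and Trim30a had the largest rises after Oas2. Ifi44 was at 0.663, 0.276 and 0.589 CPM in parental cells, 3.76, 2.98 and 2.23 CPM in gs1_B4 and 146, 63.5 and 80.2 CPM in gs1_C8. Its log2 fold change was 2.54 ± 0.49 (adjusted p = 0.00025) and 7.58 ± 0.34 (adjusted p = 7.1e-13). Trim30a was at 0.426, 0.237 and 0.272 CPM, 2.53, 2.76 and 2.49 CPM and 60.1, 30.6 and 39.9 CPM in the same groups. Its rise in gs1_B4, by log2 3.03 ± 0.38 (adjusted p = 1.5e-06), was the largest of the 37 in that clone. Trim30a passed the count minimum only in the 2 Mff clones, so it was tested only because it was high there. Rtp4 and Xaf1 rose in both Mff clones, to 93.8 ± 17.7 CPM and 49.6 ± 11.6 CPM in gs1_C8 from 2.28 ± 0.791 CPM and 2.81 ± 0.326 CPM, and Ifi35 rose in gs1_C8, to 50.4 ± 12.3 CPM from 13.7 ± 0.625 CPM (SD, n = 3 each). Ifi27, which encodes a mitochondrial protein, was the gene that was not highest in gs1_C8 replicate 1: its libraries there were at 123, 121 and 129.9 CPM, close together, against 28.9, 22.1 and 25.5 CPM in parental cells and 47.6, 39.6 and 31.7 CPM in gs1_B4.

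Levels between genes can be set side by side per length, as the mean CPM per kilobase of exon. In parental cells Ifi27 (17.4), Isg20 (16.9), Bst2 (14.2) and Trim25 (13.7) were the most abundant of the 37. In gs1_C8 the leading genes were Isg15 (99.7), Bst2 (95.8), Ifi27 (84.8), Oas1a (57.3) and Rtp4 (44.0). Isg15 and Rtp4 were at 6.27 and 1.07 CPM per kilobase in parental cells. The spread between libraries was also larger in gs1_C8. The coefficient of variation there had a median of 25.8% over the 36 members of at least 5 CPM. It was 9.07% over 19 in parental cells and 9.28% over 24 in gs1_B4, so the sets of members differ. Replicate 1 of gs1_C8 was the highest of its 3 libraries for 36 of the 37 genes.

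**Figure D3:**
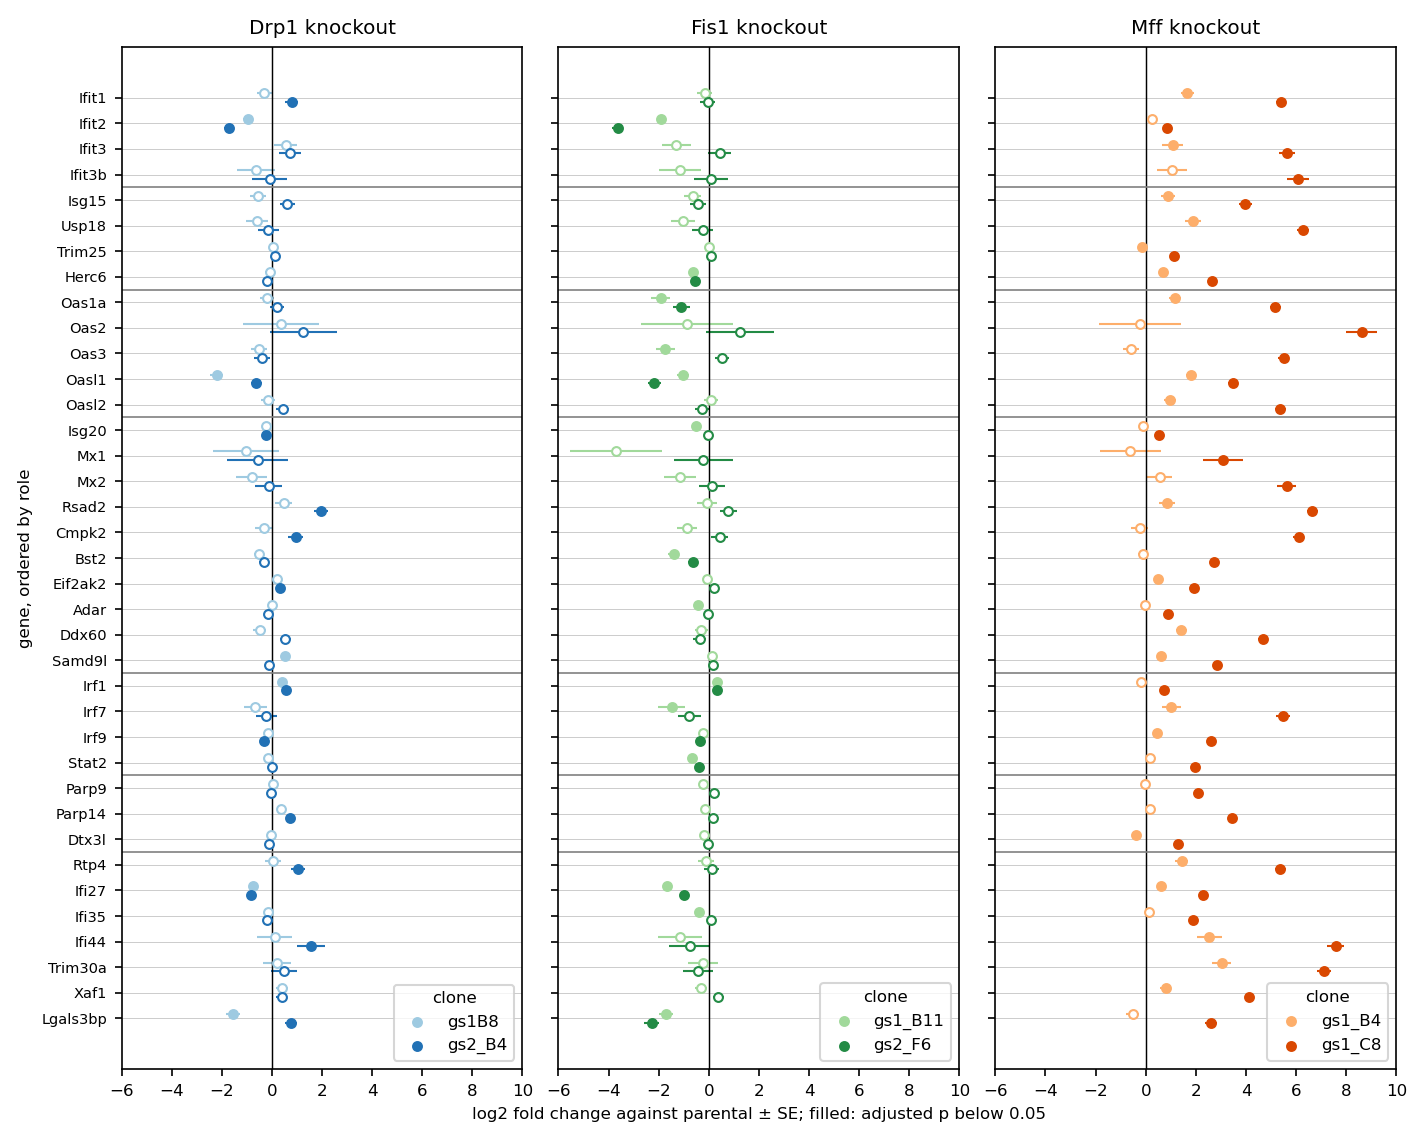
Log2 fold change of each of the 37 genes against parental cells in the 6 clones, with its SE; filled points passed an adjusted p of 0.05 and open points did not. Every gs1_C8 point is filled and right of 0, from 0.52 to 8.62, while Drp1 and Fis1 clones have filled points on both sides.

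In the Drp1 and Fis1 clones the members were called in both directions. In gs1B8, 2 of the 37 rose and 4 fell, where 12.1% and 17.4% of all genes did, with a median log2 fold change of -0.15 (-0.01 over all genes). In gs2_B4, 9 rose and 5 fell, where 24.1% and 26.3% did, with a median of -0.0079 (0.0030 over all genes). In gs1_B11, 1 rose and 13 fell, where 21.4% and 25.9% did, with a median of -0.62 (-0.0086 over all genes). In gs2_F6, 1 rose and 9 fell, where 13.1% and 18.2% did, with a median of -0.036 (-0.012 over all genes). Read against these backgrounds, rises among the members were few in gs1B8, gs1_B11 and gs2_F6 and near the background in gs2_B4, and falls were few in gs1B8 and gs2_B4 and somewhat above the background in the Fis1 clones. No test of these shares was made. Of the 37, 33 had a negative fold change in gs1_B11, and 25 had their lowest mean of the knockout arm there. The matching shares of all genes were not counted.

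Ifit2, Oasl1 and Ifi27 fell in all 4 of these clones. Ifit2 was at 5.90, 4.69 and 5.09 CPM in gs1B8 and 2.90, 3.47 and 2.99 CPM in gs2_B4. It was at 3.46, 2.36 and 2.38 CPM in gs1_B11 and 1.33, 0.486 and 0.714 CPM in gs2_F6, all below every parental library. The lowest log2 fold change was -3.63 ± 0.22 (adjusted p = 1.9e-10), in gs2_F6. Oasl1 was at 6.86, 5.80 and 8.11 CPM in parental cells and 1.14, 1.13 and 2.26 CPM, 4.95, 4.30 and 4.24 CPM, 3.46, 2.87 and 3.88 CPM and 1.37, 1.42 and 1.85 CPM in gs1B8, gs2_B4, gs1_B11 and gs2_F6. Its log2 fold change there was -2.20, -0.63, -1.02 and -2.17, whereas it rose in both Mff clones. All 12 libraries lay below the parental ones. In gs2_B4 the call was lost under voom (log2 -0.52, adjusted p = 0.12), and without gs2_B4 replicate 2 or 3 or parental replicate 3, at adjusted p-values of 0.061 to 0.11. Ifi27 fell to 15.4 ± 0.0832 CPM, 14.3 ± 2.79 CPM, 7.98 ± 0.272 CPM and 12.9 ± 2.32 CPM from 25.5 ± 3.40 CPM (SD, n = 3 each). DMSO cells, also unmodified but of the separate drug arm, were at 12.7 ± 1.51 CPM for Ifi27, well below the parental level. Ifit2 and Oasl1 were at 12.3 ± 1.53 CPM and 6.44 ± 1.17 CPM in DMSO cells. The arms were not tested against each other. In both Drp1 clones 3 members fell, these 3, and 12.1% of all genes did. In both Fis1 clones 8 fell, where 9.02% of all genes did, and the other 5 were Herc6, Oas1a, Bst2, Stat2 and Lgals3bp. In gs2_F6 parental replicate 2 carried the calls of Herc6, Bst2 and Stat2 (adjusted p = 0.065, 0.052 and 0.059 without it), as did gs2_F6 replicate 2 those of Herc6 and Bst2 (0.11 and 0.094), gs2_F6 replicate 3 those of Bst2 and Oas1a (0.061 and 0.063) and parental replicates 1 and 3 that of Oas1a (0.058 and 0.050). The remaining falls in gs1_B11 were Oas3, Isg20, Adar, Irf7 and Ifi35, of which Ifi35 did not pass without any 1 of the 6 libraries (adjusted p = 0.052 to 0.11) nor Irf7 without any 1 except parental replicate 2 (0.054 to 0.078), with Oas3 at 0.624, 0.627 and 0.503 CPM and a log2 fold change of -1.73 ± 0.39 (adjusted p = 0.001). In gs2_F6 the remaining fall was Irf9 (log2 fold change -0.33), whose call was lost without parental replicate 1 (adjusted p = 0.19) or any 1 of the gs2_F6 libraries (0.052 to 0.12).

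Irf1 was the exception in the other direction, and the one member to rise in 5 of the 6 clones. It was at 30.5, 27.2 and 28.1 CPM in parental cells, 41.6, 38.2 and 34.9 CPM in gs1B8 and 45.4, 41.3 and 40.5 CPM in gs2_B4. In the Fis1 clones it was at 38.96, 36.1 and 30.7 CPM and 38.8, 36.7 and 33.9 CPM. In gs1_C8 it was at 55.9, 44.7 and 42.7 CPM, and in gs1_B4, where it was not called, at 29.3, 26.6 and 20.003 CPM. Log2 fold changes ran from 0.31 in gs1_B11 to 0.73 in gs1_C8. The call in gs1B8 was lost without gs1B8 replicate 1 (log2 0.35, adjusted p = 0.068). In gs1_B11 it was lost without replicate 1 or 2 of that clone or parental replicate 2 or 3 (log2 0.25 to 0.30), and in gs2_F6 without replicate 1 or 2 of that clone or the same parental libraries (log2 0.30 to 0.34). Irf1 was the one member higher in both Drp1 clones, as were 7.94% of all genes, and in both Fis1 clones, as were 5.94%.

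Lgals3bp, a secreted glycoprotein gene, moved apart in the Drp1 clones. It was at 2.93, 2.53 and 2.26 CPM in gs1B8, 9.04, 7.14 and 6.48 CPM in parental cells and 14.1, 14.1 and 10.4 CPM in gs2_B4. The log2 difference between these clones was 2.31 ± 0.27 (adjusted p = 1.1e-06). In total 10 members were higher and 2 lower in gs2_B4 than in gs1B8, where 20.1% and 20.9% of all genes were. The rises in gs2_B4 against parental cells were those of Ifit1, Rsad2, Cmpk2, Eif2ak2, Irf1, Parp14, Rtp4, Ifi44 and Lgals3bp. Of these, Cmpk2 was not called without parental replicate 2 (adjusted p = 0.089), Ifit1 without parental replicate 2 (0.12) or gs2_B4 replicate 1 (0.069), Lgals3bp without parental replicate 3 (0.052), and Ifi44 without parental replicate 2 or 3 or gs2_B4 replicate 1 or 2 (0.050 to 0.12). Rsad2 rose most, at 5.62, 5.33 and 3.83 CPM, a log2 fold change of 1.95 ± 0.29 (adjusted p = 9.8e-06) over parental cells. Between the Fis1 clones, 13 members were higher and 2 lower in gs2_F6 than in gs1_B11, where 22.9% and 24.7% of all genes were. The largest called difference was that of Oas3, at 0.624, 0.627 and 0.503 CPM in gs1_B11 and 3.27, 2.88 and 2.44 CPM in gs2_F6 (log2 difference 2.26 ± 0.35, adjusted p = 2.4e-05).

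**Figure D4:**
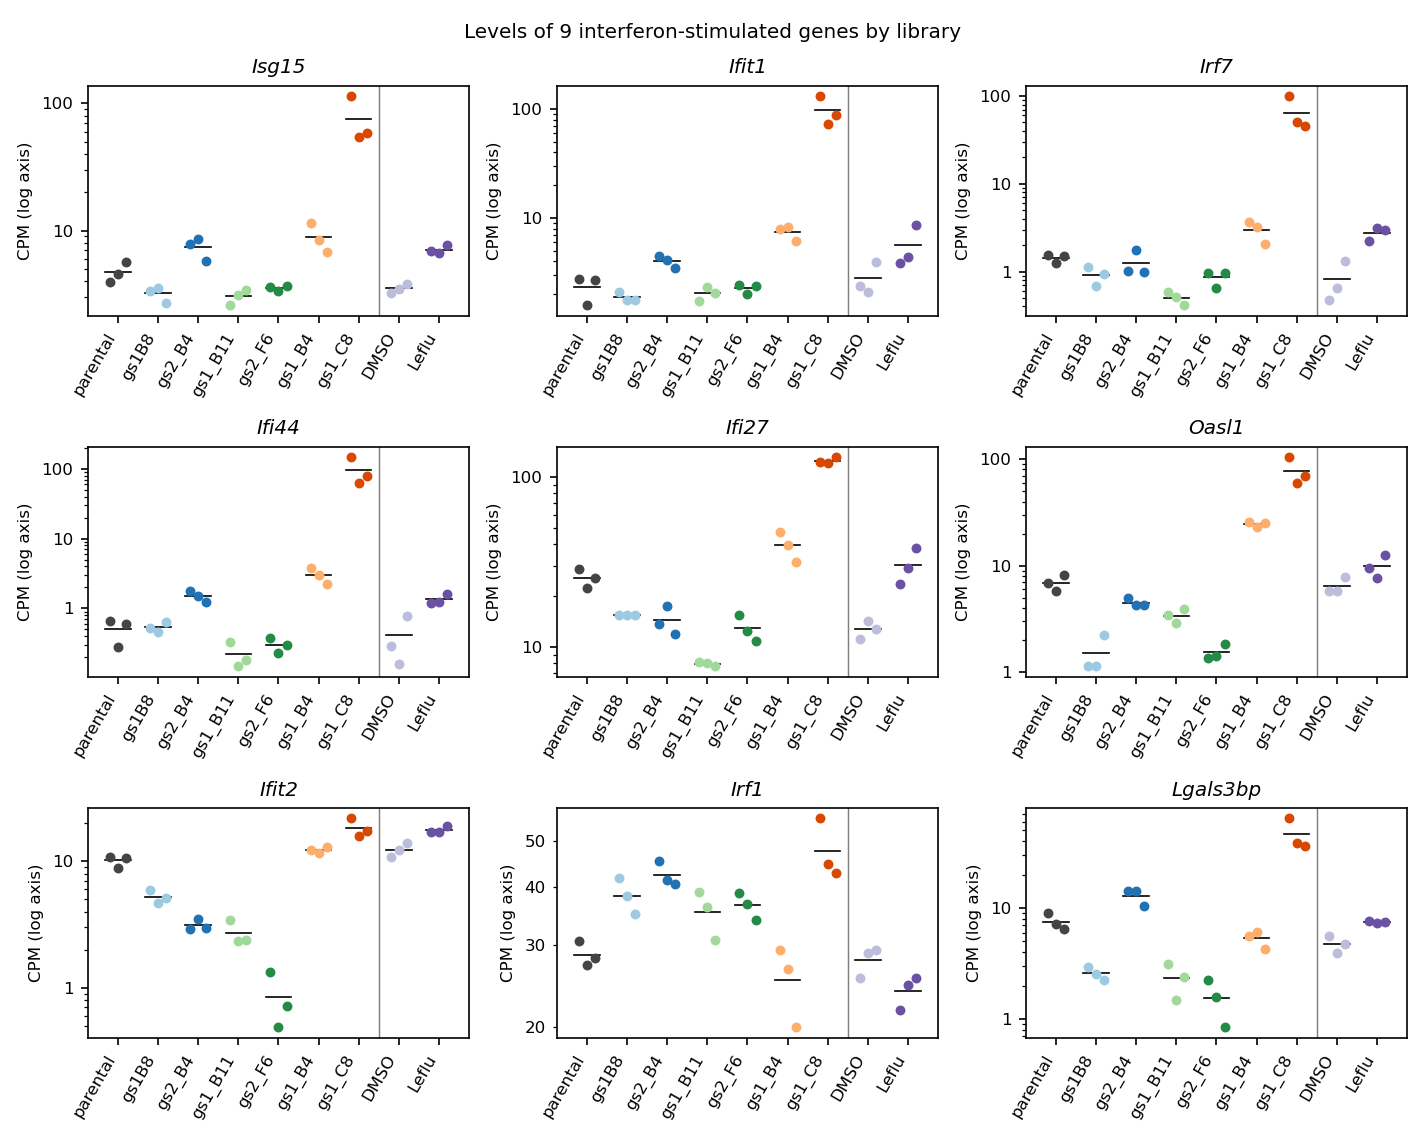
CPM (log axis) of 9 of the genes in each library of the 9 groups; points are libraries, bars are means of 3, and the grey line separates the knockout arm from the drug arm. Isg15, Ifit1, Irf7 and Ifi44 are highest in gs1_C8 by far, Ifit2 and Oasl1 lie below parental cells in the Drp1 and Fis1 clones, and Irf1 lies above parental cells in 5 clones.

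The genotypes were also compared with the clone as the replicate, on counts summed over the 3 libraries of a clone, which leaves 2 values a genotype. None of the 35 members tested passed edgeR's adjusted threshold in any of the 3 comparisons. Of all 15513 genes tested, 0% passed between Drp1 and Fis1 and 0.00645% in each comparison with Mff. At an unadjusted p under 0.05 the number of members was 0 for Drp1 against Fis1, 27 for Drp1 against Mff and 29 for Fis1 against Mff, where 2.05%, 6.14% and 8.33% of all genes were. DESeq2 called 0, 11 and 20 members, all lower than in Mff, where it called 0.00645%, 0.89% and 1.56% of all genes as lower. The smallest adjusted p of a member was 0.67 against Drp1 and 0.46 against Fis1. The 2 Mff clones are far apart in these genes, as the direct comparison of them shows.

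The genes upstream of this response were counted from lists of the pathway's members. Interferon genes themselves were near 0. Of 21 ligand genes 12 had no count in any of the 27 libraries, none passed the count filter, and the largest count in 1 library was 4. Ifnb1, the interferon beta gene, had 4, 3 and 3 counts in the gs1_C8 libraries, 1 in each gs1_B4 library and 0 in the other 15 libraries of the knockout arm. In the drug arm it had 1 count, in DMSO replicate 2. Over all ligand genes gs1_C8 had 18 counts and the parental cells 2. Counts this low do not carry a test.

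The type I receptor genes moved in opposite directions in the Mff clones. Ifnar1 and Ifnar2, which encode its 2 chains, fell in gs1_C8, to 31.5 ± 2.85 CPM and 9.45 ± 0.872 CPM from 37.5 ± 0.437 CPM and 12.2 ± 0.829 CPM (SD, n = 3 each). Both rose in gs1_B4, to 43.4 ± 3.96 CPM and 17.3 ± 1.24 CPM. The rise was not particular to gs1_B4, since Ifnar2 also rose in gs1B8, gs2_B4 and gs2_F6, by log2 0.32, 0.65 and 0.31. Ifnar1 also rose in gs2_F6, by log2 0.27, and was not called in the Drp1 clones. Neither gene was called in gs1_B11. Of 9 receptor and kinase genes 2 rose and 2 fell in gs1_C8, shares near the 21.5% and 25.2% of all genes, and 5 rose and 1 fell in gs1_B4, where 20.9% and 26.8% did. Irf3, the factor that starts interferon transcription, rose slightly in gs1_C8, to 25.4 ± 0.533 CPM from 20.04 ± 0.360 CPM. Of 11 tested transcription factor genes 6 rose and 1 fell in gs1_C8. Irf8, a factor best known from myeloid cells, was the one that fell, to 1.89 ± 0.436 CPM from 3.40 ± 0.971 CPM, and it rose in gs1_B4, to 10.04 ± 0.841 CPM. Nmi, an interferon-induced partner of STAT proteins, rose in both Mff clones, to 25.9 ± 2.69 CPM in gs1_B4 and 57.5 ± 13.3 CPM in gs1_C8 from 18.9 ± 0.909 CPM. Of 16 negative regulators 4 rose and 4 fell in gs1_C8, shares near those of all genes. Trex1, an exonuclease gene that clears cytosolic DNA, was among those that rose, to 7.26 ± 1.69 CPM from 2.97 ± 0.113 CPM. Socs1, a feedback inhibitor, was not called in any of the 6 clones or with leflunomide, and Socs3 rose in gs1_B4 (9.53 ± 0.283 CPM) and fell in gs1_C8 (3.37 ± 0.287 CPM) from 5.42 ± 0.483 CPM.

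Of 13 tested nucleic acid sensor and adaptor genes 9 rose in gs1_C8 and none fell, where 21.5% and 25.2% of all genes did, with a median log2 fold change of 0.87. Mavs, Tbk1, Ticam1 and Aim2 did not pass. Ddx58, the RIG-I gene, rose to 242 ± 32.9 CPM from 54.1 ± 4.25 CPM, and Ifih1, the MDA5 gene, to 188 ± 26.1 CPM from 36.1 ± 2.43 CPM. Dhx58, Zbp1 and Tlr3 rose there as well, to 16.5 ± 6.87 CPM, 8.85 ± 5.35 CPM and 166 ± 30.4 CPM from 0.738 ± 0.438 CPM, 0.275 ± 0.0452 CPM and 63.4 ± 5.16 CPM. Several of these sensor genes are themselves interferon-induced. The DNA sensor gene Cgas and its adaptor Sting1 changed less, at log2 0.16 ± 0.05 (adjusted p = 0.024) and 0.46 ± 0.09 (adjusted p = 0.00024) in gs1_C8. In gs1_B4, 6 of the 13 rose and 3 fell, where 20.9% and 26.8% of all genes did, with Ifih1 at 65.9 ± 3.63 CPM and Cgas lower, at 30.2 ± 1.60 CPM.

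Markers of leukocytes, cells in which many interferon-stimulated genes are expressed, were measured as a check on other cell types, and neither of the 2 that could be tested passed in gs1_C8. Of 12 marker genes Cd3e, Ncr1 and Adgre1 had 0 counts in all 27 libraries, and Ptprc (CD45) was at 0.0659 ± 0.0582 CPM there and 0.119 ± 0.0348 CPM in parental cells. The summed level of the 12 was 7.87 to 8.93 CPM in gs1_C8 and 8.52 to 8.97 CPM in parental cells, nearly all of it Csf1r and Cd68. Of 8 fibroblast markers 1 could be tested, Pdgfra, and it rose in gs1_C8, to 7.26 ± 0.837 CPM from 4.05 ± 0.0810 CPM (log2 0.83 ± 0.14, adjusted p = 6.3e-05). Col3a1, Lum and Thy1 had 0 counts in all 27 libraries, and the summed level of the 8 was 6.42 to 8.07 CPM in gs1_C8 and 4.21 to 4.35 CPM in parental cells. All 5 tested genes of a list of ribosomal and other structural RNAs rose in gs1_C8 as well, where 21.5% of all genes did. The gene mt-Rnr2 was at 3212 ± 826 CPM there against 2389 ± 159 CPM in parental cells. Rn7s1 and Rn7s2, also of the 5, had the same counts as each other in every group. All 5 rose in gs1_B11 too, where 21.4% of all genes did, with a median log2 fold change of 1.49 against 1.12 in gs1_C8. The part of these genes in the result was not tested.

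The pattern over the knockout arm was also used to rank other genes, by Pearson's r of log2(CPM + 1) with the mean standardised level of the members over the 7 group means. Among 9687 genes outside the list the 10 highest included Slc7a1, Igtp, Irgm2, Ube2j1, Gbp9, Ddx24, Ech1, 3830417A13Rik and Oas1g, with r from 0.984 to 0.994. Igtp, Irgm2 and Gbp9 are interferon-inducible GTPase genes, and Oas1g is the near copy of Oas1a. The gene 3830417A13Rik had mean levels of 0.045 CPM in parental cells, 0.110 in gs1_B4 and 114.5 in gs1_C8. These correlations are over 7 points of which gs1_C8 is far from the others in the members, and all genes share the same libraries. Of the members, Irf1 (r = 0.48), Ifit2 (0.65) and Oasl1 (0.85) were least like the mean of the others.

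Leflunomide was compared with DMSO in a separate fit of 6 libraries and 12603 genes, 33 of the 37 members among them. Isg15, Irf7 and Ifi27 passed as higher and none passed as lower, where 1.84% and 0.944% of all genes passed. Of the 33, 30 had a positive fold change, with a median of log2 0.66 against 0.0037 over all genes tested, and 19 had an unadjusted p under 0.05, as did 20.9% of all genes. Isg15 was at 3.25, 3.48 and 3.80 CPM with DMSO and 6.96, 6.66 and 7.64 CPM with leflunomide. The groups did not overlap, and the log2 fold change was 1.02 ± 0.14 (adjusted p = 0.015). Irf7 was at 0.478, 0.643 and 1.33 CPM with DMSO and 2.20, 3.15 and 2.99 CPM with leflunomide (1.79 ± 0.37, adjusted p = 0.047). Ifi27 was at 11.1, 14.2 and 12.8 CPM with DMSO and 23.3, 29.1 and 38.1 CPM with leflunomide (1.25 ± 0.18, adjusted p = 0.018). Parental cells of the knockout arm were at 28.9, 22.1 and 25.5 CPM for Ifi27. These rises were smaller than those of the same genes in gs1_C8, at log2 3.98, 5.48 and 2.28, but the arms have different controls and were not tested against each other. All 3 leflunomide libraries lay above all DMSO libraries for 12 members, where 13.6% of the genes tested did, and below them for Irf1, where 12.6% did. Besides the 3 called genes the 12 were Herc6, Ifi44, Ifit2, Ifit3b, Isg20, Lgals3bp, Oasl2, Stat2 and Xaf1. Ifit2, for example, was at 10.8, 12.3 and 13.8 CPM with DMSO and 17.1, 17.2 and 18.9 CPM with leflunomide, at an adjusted p of 0.057.

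The count of 3 rested on the libraries and the fit. Without DMSO replicate 3, the library rich in ribosomal RNA, 6 members passed, as without leflunomide replicate 3. Without leflunomide replicate 1, 1 passed, and none passed without DMSO replicate 1, DMSO replicate 2 or leflunomide replicate 2. DESeq2 called 8, voom with quality weights 14, the fit of all 27 libraries 16 and the fit with no low-count filter 13, where 3.39%, 10.8%, 8.55% and 2.03% of all genes were called higher. Replicate 3 was the highest library for 32 of the 37 members with DMSO and for 30 with leflunomide. Of the sensors Ddx58 passed, from 53.3 ± 2.68 CPM to 75.7 ± 6.74 CPM (log2 0.51 ± 0.08, adjusted p = 0.024). The leukocyte markers moved too, with a summed level of 4.83 to 7.12 CPM with DMSO and 12.6 to 16.4 CPM with leflunomide, from Csf1r and Cd68, while Cd3e, Ncr1 and Adgre1 had 0 counts. The summed level of the 9 epithelial markers was 2526 to 2620 CPM with DMSO and 1942 to 2200 CPM with leflunomide, and of 8 tested Krt7 was called lower (725 ± 31.8 CPM and 484 ± 46.3 CPM, log2 -0.58 ± 0.09, adjusted p = 0.019). The part of these markers in the result was not tested.

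**Figure D5:**
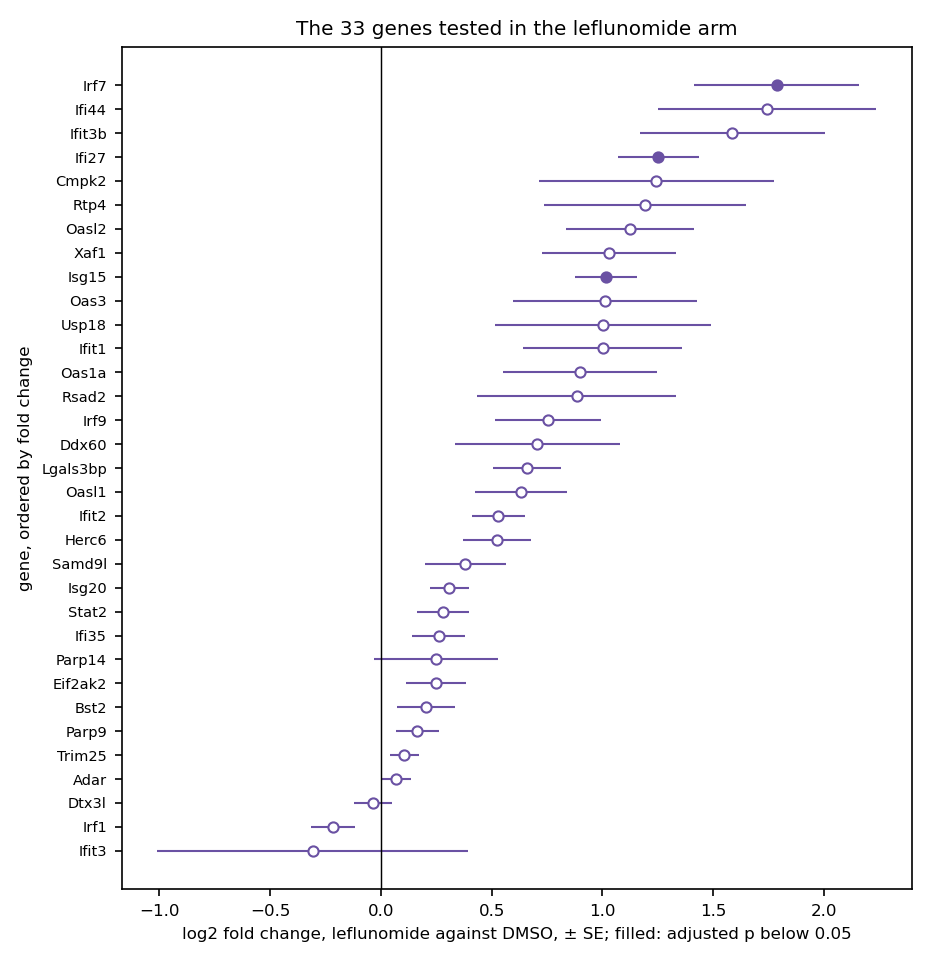
Log2 fold change with leflunomide against DMSO, with its SE, for the 33 members tested, in order of size; filled points passed an adjusted p of 0.05. Points lie right of 0 for 30 genes, and Irf7, Ifi27 and Isg15 are filled.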

How the data were processed

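RNA was polyadenylated RNA of 27 libraries of cultured cells, sequenced after library preparation with the KAPA RNA HyperPrep kit, per the labels' protocols. The submitters' processing notes name Trimmomatic 0.35, RSEM and the mouse genome GRCm38/mm10. The authors deposited 1 table of RSEM expected counts per gene, 91.5% of them whole, which were rounded to whole numbers. Whether counting used strand is not given in the sources used here. Library totals of 18492020 to 31295937 counts set the precision, and intervals on counts cover counting error only.

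The 21 libraries of the knockout arm (1 coefficient per clone) and the 6 of the drug arm were fitted separately with edgeR 4.0.16 in R 4.3.3, after filterByExpr and TMM scaling, with Benjamini-Hochberg adjustment over all genes tested. Both fits were tested on simulated data. Genotypes were compared on counts summed by clone. Alternatives were DESeq2 1.42.0, its size factors, no filter, all 27 libraries in 1 fit, limma 3.58.1 voom with quality weights, a replicate block and each library left out. The alternative without ribosomal RNA genes was run by the table's gene categories, chosen after seeing the data, because the listed symbols were mostly not in the table.

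Members and lists were chosen with earlier results of these data known. All 37 members may be named, with a fixed set of pathway genes, up to 4 further called genes per list by the size of their change, the 3 targeted genes and the 10 genes most like the members. Some cell type markers and the sensor genes that did not pass are named outside that rule, after their values were seen. Gene positions and strands come from GENCODE M21 on GRCm38. Some genes of the lists are not reported here.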

Additional observations from a re-analysis of the deposited data

Results flagged for a closer look

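Between the Mff clones all 37 members differed, all higher in gs1_C8, by edgeR's quasi-likelihood test between the clones. Of all genes 28.3% were higher and 26.4% lower. Oas2, Mx1 and Mx2 passed the count minimum only in gs1_C8 and had to differ. Between the Drp1 clones 12 members differed, 10 of them higher in gs2_B4, where 20.1% of all genes were higher and 20.9% lower. Between the Fis1 clones 15 differed, 13 of them higher in gs2_F6, where 22.9% and 24.7% were. The shares of members that differed between the Drp1 clones and between the Fis1 clones were not above those of all genes.

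Among the 6 libraries of each genotype, a library far from the others was looked for in 111 sets of values. Chance flags about 5% of sets from 1 group, but each set here holds 2 clones, so that rate may not apply. Clones that are far apart, as those of Mff are, can hide an outlying library. In all 6 were found, none of them in Mff. In the Drp1 libraries these were 1 library with Ifit3b at 0.447 CPM and 1 with Ifi35 at 13.5 CPM. In the Fis1 libraries they were Ifit3b at 0.746 CPM, Mx1 at 0.13 CPM, Ddx60 at 2.10 CPM and Trim30a at 0.162 CPM, each in 1 library. Ifit3b, Mx1 and Trim30a are here below 1 CPM, which is a small number of counts.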

How the results depend on the processing

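All 37 members kept their call as higher in gs1_C8 under every alternative run and without each of its libraries, against parental cells and against gs1_B4. For Oas2, Mx1 and Mx2, which passed the count minimum only in gs1_C8, both calls were bound to appear. Of the called members, the number that kept the call under all other settings and, separately, without each library was 6 and 5 of 6 in gs1B8, 10 and 7 of 14 in gs2_B4, 13 and 11 of 14 in gs1_B11, 8 and 4 of 10 in gs2_F6, 17 and 16 of 21 in gs1_B4 and 3 and 0 of 3 with leflunomide. No called fold change of a member was reversed, and fold changes that were not called were not checked for this. Counts of members that moved by more than 1.5 times are these. In gs1B8 rises were 5 with no low-count filter and 4 with the replicate block, and falls 10 with no filter. In gs2_B4 falls were 3 with DESeq2 size factors, DESeq2, all 27 libraries, ribosomal RNA genes left out or voom. In gs2_F6 rises were 3 with DESeq2, 7 with no filter, 2 with voom and 4 with the replicate block. In gs1_B4 falls were 1 with DESeq2 size factors, all 27 libraries or ribosomal RNA genes left out, 4 with no filter and 5 with the replicate block. Falls in gs2_F6 against gs1_B11 were 4 with no filter. Rises with leflunomide were 8 with DESeq2, 13 with no filter, 16 with all 27 libraries, 14 with voom and 8 with the replicate block. Members lower than in Mff were 11 for Drp1 and 20 for Fis1 with DESeq2, and 2 for Fis1 with no filter. The ISRE core with 1 mismatch was in a window of 27 members. The causes were not tested.

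Leaving out each library gave rises and falls of 1 to 4 and 4 in gs1B8 (4 without parental replicate 1, 1 without gs1B8 replicate 1), 6 to 11 and 3 to 5 in gs2_B4 (3 falls without any gs2_B4 library or parental replicate 3), 0 to 1 and 11 to 13 in gs1_B11 (0 without gs1_B11 replicate 1 or 2 or parental replicate 2 or 3), 0 to 2 and 6 to 8 in gs2_F6 (2 without parental replicate 1, 0 without gs2_F6 replicate 1 or parental replicate 2 or 3) and 15 to 18 and 1 to 3 in gs1_B4 (1 fall without parental replicate 1 or 2 or gs1_B4 replicate 2). Between clones the counts were 8 to 9 and 2 for Drp1, 9 to 13 and 2 for Fis1 and 37 and 0 for Mff. With leflunomide rises were 0 to 6, and between genotypes all counts were 0. The ratio of summed levels in gs1_C8 was 5.60 to 6.98.

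Deviations from the group means of same-numbered libraries correlated at -0.12 to 0.35 in the knockout arm (63 pairs, mean 0.0997) and -0.0053 to 0.21 in the drug arm (3 pairs, mean 0.14), against means of -0.050 and -0.065 for different numbers. Not every same-numbered pair was over 0.1, so the numbers were not taken to pair libraries. The replicate block gave 4 rises in gs1B8 and 8 with leflunomide.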
